A study of Homo sapiens with 2 samples.

Results

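RAB proteins form the largest branch of the RAS superfamily of small GTPases. Of 19775 genes named on the array, 57 were RAB genes, taken as every gene whose single symbol in the platform annotation is RAB with a number and an optional letter. Together they were measured by 138 probe sets, each of which reads a stretch of a transcript. Where a gene had several, the brightest, by the mean over both arrays, stands for it. The RNA came from HEK293T cells, a line from human embryonic kidney that expresses the SV40 T antigen, which were transfected with polyethylenimine and sorted for GFP 48 h later. A first condition received the vector pcDNA3.1-GFP, which encodes GFP alone (GFP control), and a second received pcDNA3.1-IRX1::GFP, which encodes the homeobox transcription factor IRX1 joined to GFP. All cells compared were thus transfected, expressed GFP and had passed the sort, and IRX1 came from a plasmid in a transient transfection of 1 cell line. The comparison asks which transcripts differ when IRX1 is overexpressed.

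A RAB protein works as a switch. It is held in the cytosol by a GDP dissociation inhibitor (GDI), carries prenyl groups added by the RAB geranylgeranyl transferase, and is loaded with GTP on a given membrane by its exchange factor (GEF). There it recruits effectors such as tethers, motors and scaffolds, until a GTPase-activating protein (GAP) switches it off. Different RAB proteins mark different organelles, so that RAB1 and RAB6 are known for the Golgi, RAB5 for early endosomes, RAB11 for recycling endosomes, RAB7 for late endosomes and lysosomes, and RAB3 and RAB27 for regulated secretion.

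For each condition 1 array was analysed, so no error between cultures and no p-value can be given, and every difference below is a difference between these 2 arrays. The values are MAS5 signals, linear intensities without a unit, and the number of arrays limits their precision. The mean signal without the lowest and highest 2% was 1000 on both arrays. A gene was kept when the mean of its signals reached 183, the 50th percentile of all probe sets that are not array controls, which left 12193 genes, and a difference of 2-fold or more made a call. Centring the arrays on their medians moves all log2 ratios by 0.11, and it turned the calls over all genes from 10.4% higher and 5.34% lower into 8.59% higher and 6.97% lower. A signal counted as above background when it exceeded the level under which 90% of 107 probe sets for olfactory receptors lay, which was 143 on the GFP control array and 179 on the IRX1::GFP array. A fold against a signal under that level is given as "at least", measured against it. As a yardstick for noise, probe sets of the same gene had an SD of 0.49 in their log2 ratios, computed from 5930 genes, which leaves out differences between cultures. RNA quality, read from the 3-prime over 5-prime ratio of the ACTB control probe sets, differed, at 3.23 for the GFP control and 1.64 for IRX1::GFP, and its part in the differences below was not tested. Of 6 genes fixed as markers of HEK293T cells, 5 (KRT8, KRT18, VIM, NEFL and NEFM) were above background on both arrays, and PAX2 was above it with IRX1::GFP only. Of 6 measured markers of other cell types, 3 were above background on both arrays as well, CD14 (327 and 856), COL1A1 (631 and 2571) and PECAM1 (178 and 203), ALB and CD3E were so in the GFP control alone, and the leukocyte marker PTPRC was on neither, at 76.9 and 71.4. Their part in the results was not tested. The only IRX1 probe set was above background on neither array, at 33.1 and 57, and does not check the labels.

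Signals differed most for RAB3A and RAB40C, which were higher with IRX1::GFP, and for RAB32 and RAB30, which were lower. To show the genes themselves, the 250 bases before the start of each are printed here from the RefSeq promoter table (GRCh38.p14), on the strand of the gene. None of the motifs searched below lies in these 4 stretches, so all letters are in lower case.
RAB3A (chr19:18204043-18204292, minus strand): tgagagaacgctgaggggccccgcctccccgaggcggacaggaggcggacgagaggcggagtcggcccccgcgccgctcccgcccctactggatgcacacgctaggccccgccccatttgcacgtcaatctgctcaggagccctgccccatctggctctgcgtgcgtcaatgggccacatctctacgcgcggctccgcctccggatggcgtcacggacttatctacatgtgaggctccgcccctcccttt
RAB40C (chr16:589107-589356, plus strand): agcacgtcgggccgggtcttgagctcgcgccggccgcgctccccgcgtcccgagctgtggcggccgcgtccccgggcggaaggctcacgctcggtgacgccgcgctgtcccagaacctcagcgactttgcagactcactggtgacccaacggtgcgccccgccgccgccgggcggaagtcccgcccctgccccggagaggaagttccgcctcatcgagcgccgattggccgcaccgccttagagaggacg
RAB32 (chr6:146543583-146543832, plus strand): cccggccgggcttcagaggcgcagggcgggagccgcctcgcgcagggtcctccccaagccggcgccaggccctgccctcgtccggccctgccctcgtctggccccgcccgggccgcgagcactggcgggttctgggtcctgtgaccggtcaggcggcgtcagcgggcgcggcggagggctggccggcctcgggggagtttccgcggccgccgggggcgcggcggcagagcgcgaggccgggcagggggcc
RAB30 (chr11:83071898-83072147, minus strand): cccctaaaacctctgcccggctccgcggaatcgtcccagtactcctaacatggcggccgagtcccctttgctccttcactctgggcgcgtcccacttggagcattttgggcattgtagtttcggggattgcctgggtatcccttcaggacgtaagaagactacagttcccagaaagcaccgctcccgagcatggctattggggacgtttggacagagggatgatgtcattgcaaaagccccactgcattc
The stretches differed in base composition, with a GC content of 82% for RAB32, 73.6% for RAB40C, 68.4% for RAB3A and 56.4% for RAB30, so that the higher and the lower genes were not separated by it.

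Of the 57 RAB genes, 45 passed the filter. Only 6 of them differed by 2-fold or more, 2 higher (RAB3A and RAB40C) and 4 lower (RAB32, RAB30, RAB40A and RAB33B) with IRX1::GFP, and 39 were within 2-fold. Beyond 4-fold were RAB3A and RAB40C, 4.44% of the RAB genes, beside 2.12% of all genes. The 6 called make up 13.3% of the RAB genes, beside 15.7% of all 12193 genes. By direction, 4.44% of the RAB genes were higher, beside 10.4% of all genes, and 8.89% lower, beside 5.34%. The share called is thus near that of all genes, and a passing gene that is high on a single array, such as RAB3A, had to differ. The median log2 ratio of the RAB genes, the IRX1::GFP signal divided by that of the control, was -0.07, and that of all genes was 0.07. Their quartiles lay at -0.47 and 0.37, beside -0.36 and 0.52 for all genes. Below 0 were 26 of the 45, or 57.8%, beside 45.9% of all genes. With 1 array per condition these differences between the RAB genes and all genes were not tested.

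**Figure D1:**
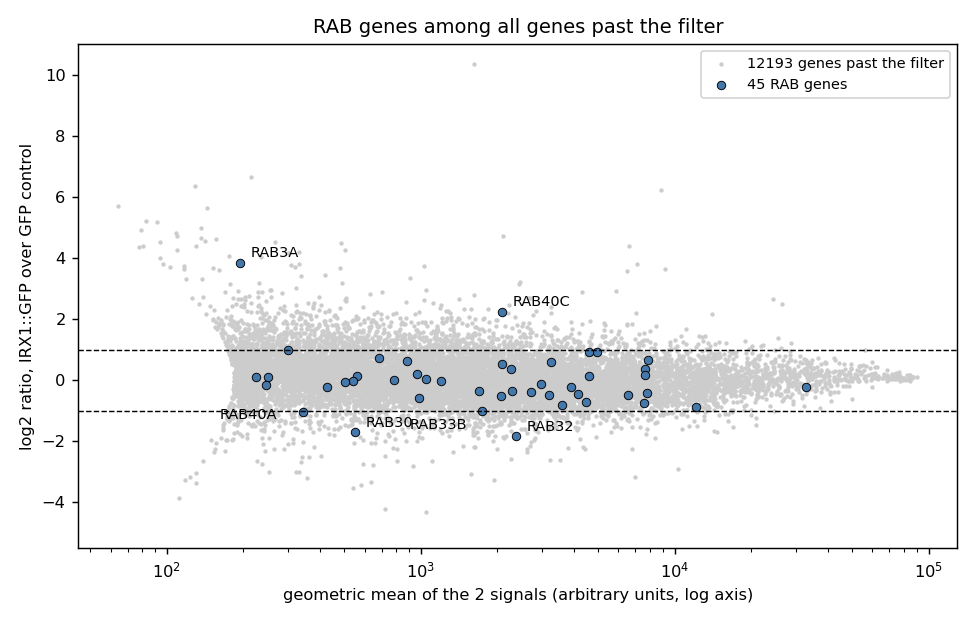
Each point is 1 gene past the filter, placed by brightness (x, geometric mean of both MAS5 signals, log axis) and by log2 ratio (y, IRX1::GFP divided by GFP control), from 1 array per condition. The 45 RAB genes (blue) lie mostly between the dashed lines at 2-fold, with RAB3A and RAB40C above them and RAB32, RAB30, RAB40A and RAB33B below.

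The share of RAB genes below 0 exceeded that of all genes in each range of brightness. Of 15 RAB genes with a mean signal from 183 to 1000, 7 (46.7%) were below 0, beside 36.2% of all genes, and the medians were 0.09 and 0.24. Of 13 with a mean from 1000 to 3000, 9 (69.2%) were below 0, beside 50.4%, and the medians were -0.37 and -0.01. Of 17 with a mean of 3000 or more, 10 (58.8%) were below 0, beside 53.6%, and the medians were -0.24 and -0.05. With 1 array per condition these shares were not tested.

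RAB3 proteins sit on synaptic and secretory vesicles and act in the last steps before fusion. The single probe set of RAB3A, the main form in neurons, read 51 for the control and 735 for IRX1::GFP, at least 5.13-fold higher. The control signal lay under background, so the gene passed the filter through its IRX1::GFP signal. RAB3D read 711 and 1099, 1.55-fold higher, on its brighter probe set, while the other was not above background. RAB3B read 215 and 421, 1.96-fold higher, just short of 2-fold. The 4 RAB3B probe sets that passed were each brighter on the IRX1::GFP array, and one of them went from 127, under background, to 274, at least 1.91-fold higher. RAB3C was not above background on either array on its brightest probe set, at 81.3 and 115. RAB3B and RAB3D, each with both signals above background where brightest, thus had the higher signal with IRX1::GFP but stayed within 2-fold.

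Among other RAB genes of regulated secretion, RAB26, a vesicle protein of secretory granules, went from 88.8 to 230, at least 1.6-fold higher, and its second probe set from 82.6 to 215. Their means did not reach the filter, and both were under background in the control, so that each is read through its IRX1::GFP signal alone. RAB27A, needed for the release of melanosomes and lytic granules, read 533 and 586 where it was brightest. Its 5 probe sets past the filter lay on both sides of 0, the lowest going from 285 to 169, at least 1.6-fold lower. RAB27B, at 5.49 and 101, and RAB37, at 14.8 and 61.7, were not above background on either array, so no fold is given. RAB27A was at a log2 ratio of -0.24 as the mean over its probe sets. Only 4 of the 8 secretory RAB genes passed the filter, RAB3A through its IRX1::GFP signal, so no count by direction is given.

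RAB40 proteins carry a SOCS box, through which they join Cullin-5 ubiquitin ligases, and they differed among themselves. RAB40C went from 960 to 4534, 4.72-fold higher, on the only 1 of its 3 probe sets past the filter. Its other probe sets read 96.9 and 133, and 20.4 and 25.1, none above background. RAB40B read 2645 and 3970, 1.5-fold higher, and its second probe set 490 and 1007, 2.05-fold higher. The dimmest RAB40B probe set, with a mean under the filter, went from 16.8, under background, to 220, at least 1.53-fold higher. It is read through its IRX1::GFP signal alone, so no direction is taken from it. RAB40A, a close relative encoded by another gene, went the other way on its single probe set, from 491 to 239, 2.06-fold lower. These proteins are similar in sequence, and how far their probe sets share signal was not tested.

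RAB32 showed the lowest ratio among the 45 members. RAB32, which acts in the making of melanosomes and other lysosome-related organelles and at mitochondria, went from 4454 to 1251 with IRX1::GFP, 3.56-fold lower. Its second probe set read 385 and 150, at least 2.16-fold lower. RAB38, its closest relative, was not above background on either array, at 15.6 and 36.4. RAB29, of the same subfamily and known for recruiting the kinase LRRK2, had the opposite direction within 2-fold. It read 3356 and 6335, 1.89-fold higher, on its brightest probe set and 1313 and 2351, 1.79-fold higher, on the next. HPS1 and HPS4, which together form the exchange factor for RAB32 and RAB38, were within 2-fold on their brightest probe sets, HPS1 at 1331 and 1124 and HPS4 at 1093 and 1603. The dimmest HPS1 probe set past the filter read 214 and 450, 2.1-fold higher.

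The other RAB genes of late endosomes, lysosomes and autophagy were within 2-fold. RAB9A, which serves the return of receptors from late endosomes to the Golgi, read 9832 and 5813, 1.69-fold lower. RAB7A, the main RAB of late endosomes, read 7744 and 5506 on its brightest probe set, 1.41-fold lower, but its other 3 probe sets past the filter had log2 ratios above 0, so that the gene showed no common direction. RAB24, an atypical member linked to autophagy, read 2000 and 2578. RAB12 read 1216 and 1188 and RAB9B 548 and 535, hardly different. RAB7B was not above background, at 90.7 and 76.1. Of 7 genes of this group past the filter 5 (71.4%) were below 0, beside 45.9% of all genes, with a median log2 ratio of -0.03.

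Of the 12 RAB genes of the ER to Golgi route and the Golgi past the filter, none was 2-fold higher, beside 10.4% of all genes, 2 (16.7%) were lower, beside 5.34%, and 9 (75%) were below 0, beside 45.9%, with a median of -0.22. These shares rest on few genes and were not tested. RAB30, a Golgi protein, went from 999 to 305 with IRX1::GFP, 3.28-fold lower. All of its 5 probe sets past the filter had the lower signal with IRX1::GFP, the second at 788 and 329, 2.4-fold lower, and 2 more at log2 ratios of -0.52 and -0.42. The dimmest went from 296 to 166, at least 1.66-fold lower. The mean log2 ratio over all 5 signals as measured, -0.95, was within 2-fold. RAB33B, which links the Golgi to the autophagy protein ATG16L1, read 2488 and 1224, 2.03-fold lower and just past the limit, on its single probe set. Its relative RAB33A read 242 and 259.

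RAB18, known for the ER and lipid droplets, read 4800 and 2700, 1.78-fold lower. Of its 6 probe sets past the filter, 4 were lower, and the 2 dimmest had log2 ratios of 0.17 and 0.36. RAB39B read 1207 and 798, 1.51-fold lower, with nearly the same ratio on its second probe set, at 853 and 566. RAB2A, RAB1B, RAB39A and RAB36 had log2 ratios of -0.45 to -0.07, and RAB2B one of 0.13. RAB1A, which serves the traffic from the ER to the Golgi, read 35216 and 30372 where it was brightest. Its dimmest probe set past the filter went from 374 to 123, at least 2.09-fold lower. RAB6B, the form of RAB6 found mainly in brain, had the highest ratio of the group, 537 and 879, 1.64-fold higher. Its dimmest probe set went the other way, from 411 to 166, at least 2.3-fold lower, so that the direction of RAB6B depended on the probe set. RAB6A, at 50.2 and 62.7, was not above background on the only probe set that names it alone. Other probe sets list RAB6A together with its near relatives RAB6C or RAB6D, and so measure no single gene. The bright ones read 9714 and 5497, 1.77-fold lower, and 11285 and 6088, 1.85-fold lower. The dim ones read 228 and 152, at least 1.28-fold lower, and 33.4 and 232, at least 1.62-fold higher, so not all had the same direction. RAB6 transcripts were thus detected on both arrays. RAB43, at 130 and 186, did not pass the filter.

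**Figure D2:**
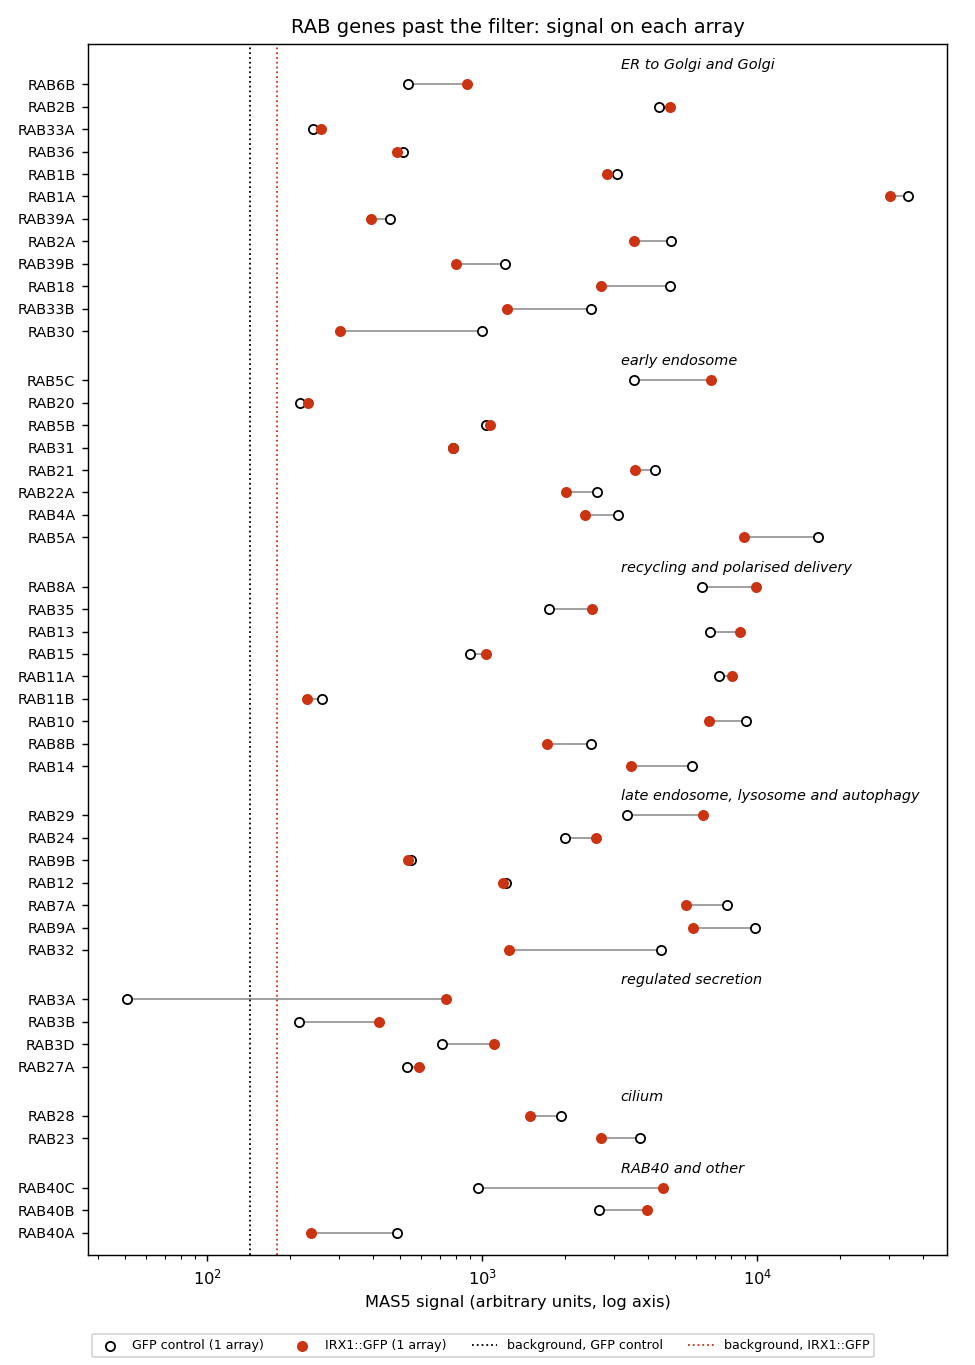
MAS5 signals (x, log axis) of the 45 RAB genes past the filter, ordered by the compartment each is known for, with the GFP control array as open and the IRX1::GFP array as red circles and dotted lines at the background of each array. Most pairs lie close together, RAB3A starts under background in the GFP control, and the pairs of RAB30, RAB32 and RAB40C are the widest with both signals above background.

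Of the 8 RAB genes of early endosomes past the filter, none differed by 2-fold, beside 15.7% of all genes, and close relatives lay on different sides. RAB5A, which drives the fusion of early endosomes, read 16563 and 8922, 1.86-fold lower, on its brightest probe set, while the next read 1631 and 1500. RAB5C read 3569 and 6780, 1.9-fold higher, on its brightest probe set and 4711 and 5600 on the other. RAB5B read 1030 and 1066. The 3 RAB5 genes thus ranged from a log2 ratio of -0.89 to 0.93, and the second probe sets, at -0.12 for RAB5A and 0.25 for RAB5C, lay closer to each other.

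Further early endosome genes past the filter were RAB4A, RAB20, RAB21, RAB22A and RAB31, with log2 ratios of -0.39 to 0.09. RAB31, which acts between the trans-Golgi network and endosomes, read 785 and 779 on its chosen probe set. The other 2 read 848 and 415, 2.04-fold lower, and 554 and 345, 1.6-fold lower. RAB22A read 2608 and 2019 on its brightest probe set but 1533 and 2651 on the next, 1.73-fold higher. RAB17, an epithelial member, was not above background, at 15.2 and 13.6. RAB4B went from 45 to 201, at least 1.4-fold higher, with a mean under the filter.

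The 9 RAB genes of recycling and polarised delivery past the filter were all within 2-fold, while 15.7% of all genes were called. Below 0 were 4 of the 9 (44.4%), beside 45.9% of all genes, with a median of 0.15. The highest ratio was that of RAB8A, which directs vesicles to the plasma membrane and the cilium, at 6295 and 9842, 1.56-fold higher. Its relative RAB8B read 2479 and 1712, 1.45-fold lower, with its other 2 probe sets below 0 as well. The lowest ratio was that of RAB14, at 5771 and 3475, 1.66-fold lower, and its second probe set gave 3578 and 2236.

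RAB10, which acts in the delivery of glucose transporters, read 9066 and 6689, and RAB13, a protein of tight junctions, 6693 and 8653. RAB35, of the fast recycling route, had 3 probe sets past the filter, all above 0, the dimmest at 208 and 403, 1.94-fold higher. RAB15 had 2, at log2 ratios of 0.19 and 0.79. RAB11A, the general RAB of recycling endosomes, read 7270 and 8066, with its other probe sets past the filter below 0, and RAB11B read 260 and 231. RAB25, an epithelial relative of RAB11, was not above background, at 91.5 and 145. Of the genes linked to cilia, RAB23, an inhibitor of Hedgehog signalling, read 3749 and 2700 and RAB28 1932 and 1491, both within 2-fold. RAB42, at 130 and 190, had a mean under the filter.

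Probe sets of the same gene were compared within this pair of arrays. Of 104 RAB probe sets past the filter, 7 that were not chosen to represent their gene differed by 2-fold or more, those of RAB1A, RAB3B, RAB6B, RAB30, RAB31, RAB32 and RAB40B given above. Of 27 RAB genes with 2 or more probe sets past the filter, 16 had all of them on 1 side of 0, 6 above and 10 below, and 11 had them on both sides. Neither count was taken over all genes, so both are a description only and no measure of agreement. The SD between probe sets of 1 RAB gene was 0.45, close to the 0.49 of all genes. Of the 6 genes called at 2-fold, RAB30 and RAB32 had further probe sets past the filter, all lower, while RAB3A, RAB33B, RAB40A and RAB40C rest on 1 probe set each.

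**Figure D3:**
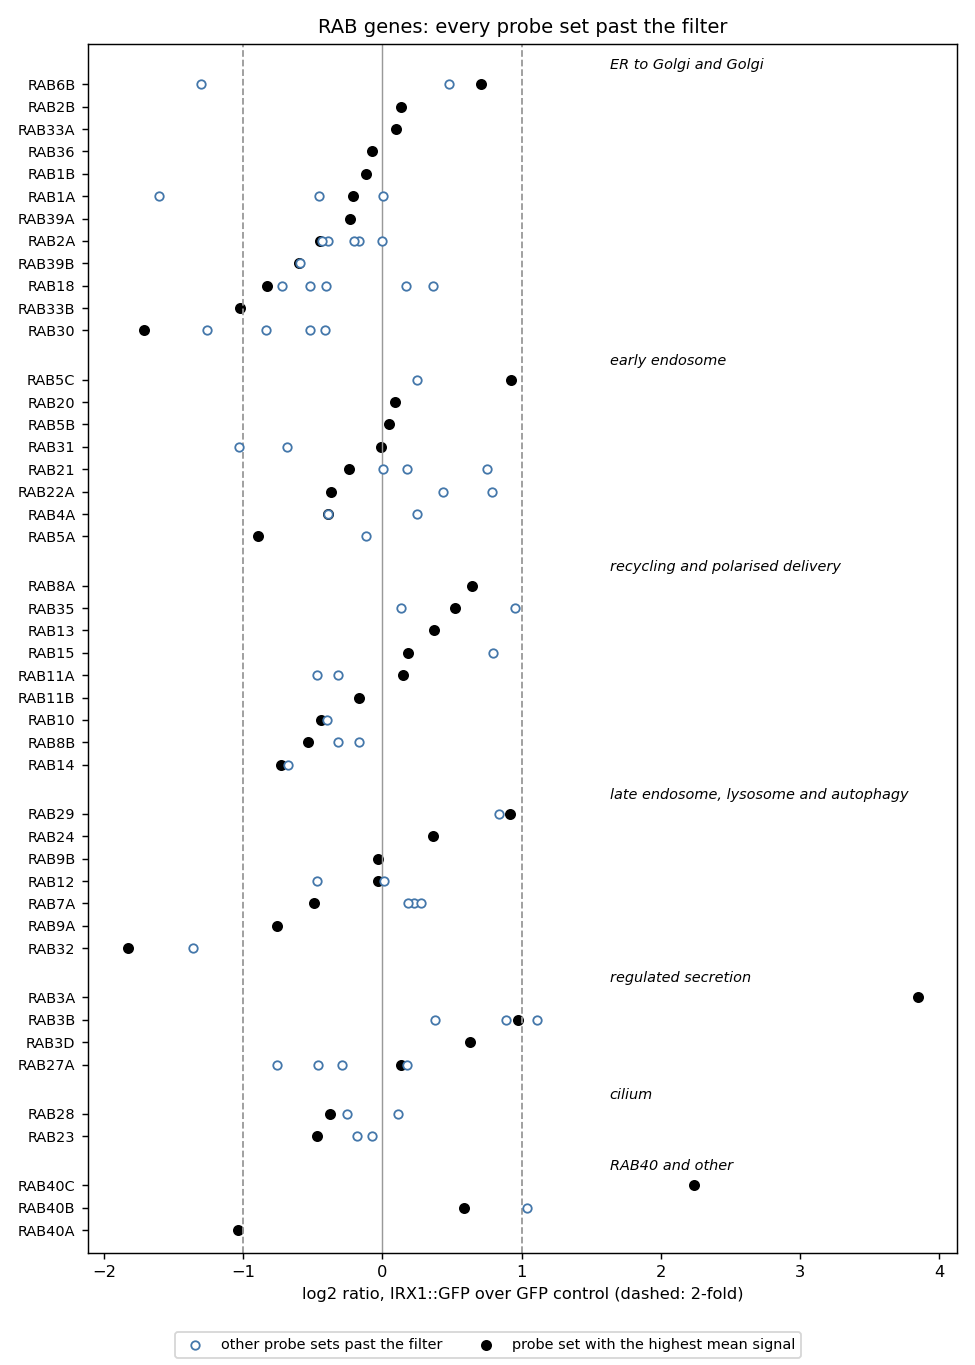
Log2 ratio (x, IRX1::GFP divided by GFP control) of every RAB probe set past the filter, with the chosen one of each gene in black, the others as open circles and dashed lines at 2-fold. All probe sets of RAB30 and RAB32 lie to the left of 0, while those of RAB6B, RAB7A, RAB22A and RAB27A lie on both sides.

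Promoters were searched for short motifs to see what the members share. In the RefSeq table, 45 of the 57 RAB genes had a window of 300 bases, 250 before and 50 after the first start listed, of which 36 belong to genes past the filter. Iroquois proteins such as IRX1 are known to bind ACA and TGT parted by 2 bases, and this was found, on either strand, in 1 RAB window (2.22%), that of RAB6B, beside 4.18% of 15843 protein-coding genes and 5.6% of all 27305 genes. The 250 bases before the start of RAB6B are shown with the match in capitals.
RAB6B (chr3:133895883-133896132, minus strand): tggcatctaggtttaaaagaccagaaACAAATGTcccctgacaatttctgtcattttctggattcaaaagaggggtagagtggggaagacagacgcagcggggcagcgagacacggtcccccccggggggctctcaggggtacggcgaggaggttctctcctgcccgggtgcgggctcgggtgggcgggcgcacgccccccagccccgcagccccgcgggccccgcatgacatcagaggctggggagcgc
RAB6B was 1.64-fold higher on its brightest probe set, within 2-fold, with its dimmest probe set in the other direction.

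The E-box CACGTG, a motif read by basic helix-loop-helix factors such as those of the lysosomal gene network, was found in 6 of 45 RAB windows (13.3%), beside 8.88% of protein-coding genes. These were RAB4A, RAB5A, RAB21, RAB24, RAB29 and RAB31. Each site is shown with the bases around it, on the strand of the gene, with the motif in capitals.
RAB4A (chr1:229270997-229271026, plus strand): gcccagcccgcgCACGTGcttccggcgcgc
RAB5A (chr3:19946964-19946993, plus strand): cactcgcagggtCACGTGacatcctgcctc
RAB21 (chr12:71754831-71754860, plus strand): ggcaccggcgctCACGTGacccgaggtgtg
RAB24 (chr5:177303732-177303761, minus strand): cggcgcccgcgcCACGTGaccttgcggccc
RAB29 (chr1:205775446-205775475, minus strand): caggcaaccctgCACGTGacgcttgcggag
RAB31 (chr18:9708229-9708258, plus strand): ccggccggcggcCACGTGacccaccgcggc
Their log2 ratios ran from -0.89 for RAB5A to 0.92 for RAB29, with 4 below 0 and 2 above, so genes with this motif did not share a direction. The ETS motif CCGGAA, searched on both strands, lay in 15 RAB windows (33.3%), beside 22.9% of protein-coding genes. Of the 14 with values past the filter, 8 were below 0 and 6 above. None of the motifs searched contains another, and a match describes only the sequence. The RAB windows had a median GC content of 66.7%, beside 58.3% for the windows of all 27305 genes, coding or not. The median of protein-coding windows alone was not taken, and the part of GC content in the motif shares was not tested.

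The proteins that act on RAB proteins were listed in 4 classes, 118 genes, of which 113 were measured and 100 passed the filter. With IRX1::GFP, 9 were 2-fold higher or more (9%, beside 10.4% of all genes) and 7 lower (7%, beside 5.34%), with a median log2 ratio of 0.09. These are ratios as measured. With low signals raised to a floor the counts were 7 and 6 of 100, beside 9.17% higher and 4.89% lower of all genes. The subunits of the RAB geranylgeranyl transferase, which prenylates nearly all RAB proteins, lay on opposite sides. RABGGTA, the alpha subunit, read 396 and 953, 2.41-fold higher. RABGGTB, the beta subunit with the catalytic site, read 13015 and 5881, 2.21-fold lower. Each rests on 1 probe set. GDI2, which extracts RAB proteins from membranes, read 18688 and 14853, and CHML, an escort protein that presents them to the transferase, 4556 and 4847, both within 2-fold.

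Among the exchange factors, 2 of 28 past the filter were higher (7.14%, beside 10.4% of all genes) and 1 was lower (3.57%, beside 5.34%). MON1B, part of the exchange factor of RAB7, read 1396 and 4244, 3.04-fold higher, and its other 2 probe sets had log2 ratios of 0.66 and 0.70. DENND5A, an exchange factor for RAB39, read 8833 and 4097, 2.16-fold lower. DENND3, an exchange factor for RAB12, went from 99.1 to 370, at least 2.58-fold higher, while its second probe set read 392 and 18.5, so its direction depended on the probe set.

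Among the GTPase-activating proteins, 3 of 33 were higher (9.09%, beside 10.4% of all genes) and 3 lower (9.09%, beside 5.34%). TBC1D15, known to act on RAB7, read 5570 and 2035, 2.74-fold lower, and its second probe set 437 and 196. TBC1D9 read 1737 and 589, 2.95-fold lower, and 542 and 402 on the next probe set. TBC1D4, which acts on RAB10 in glucose transporter traffic, read 3533 and 1729, 2.04-fold lower, and its second probe set 1729 and 1269, 1.36-fold lower. The higher ones were dim, SGSM1 at 188 and 417, EVI5L at 141 and 311 and TBC1D2, which acts on RAB7, at 109 and 284, at least 1.98-fold higher. The last pair lay under background in the control. The other SGSM1 probe sets that passed the filter differed by less than 2-fold.

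Among the effectors, 3 of 33 were higher (9.09%, beside 10.4% of all genes) and 2 lower (6.06%, beside 5.34%). The class median was 0.26. MICALL2, an effector of RAB13 at cell junctions, went from 107 to 761, at least 5.31-fold higher, while another of its probe sets past the filter read 184 and 300. RILP, which couples RAB7 to the dynein motor, read 240 and 568, 2.37-fold higher. The Golgi tethers lay on opposite sides. GOLGA2 (GM130), which binds RAB1, read 1129 and 2758, 2.44-fold higher. All 4 of its probe sets were above 0, but the others were within 2-fold, the next brightest at 1484 and 2376, 1.6-fold higher. GOLGB1 (giantin) read 5351 and 2314, 2.31-fold lower, and 798 and 528 on its second probe set. SYTL5, which binds RAB27, went from 337 to 71.2, at least 1.89-fold lower. The early endosome effectors EEA1, at 1787 and 1268, and RABEP1, at 5788 and 4456, were within 2-fold. RBSN, of the same compartment, was so on its brightest probe set, at 5417 and 4821. Its dimmest probe set past the filter went from 113, under background, to 395, at least 2.75-fold higher.

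Other families of small GTPases were set beside the RAB genes as a description. Of 14 ARF, ARL and SAR1 genes past the filter, which act in coat assembly and Golgi traffic, none was 2-fold higher and 1 was lower, with a median log2 ratio of -0.37. Of 21 RAS, RAP and RAL genes, 5 were higher and 1 lower, with a median of 0.07. The RAB genes, with 2 higher and 4 lower of 45 and a median of -0.07, lay between these families in median and in share called (13.3%, beside 7.14% and 28.6%). Over all genes past the filter 15.7% were called, and no difference between families was tested.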

How the data were processed

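RNA of GFP-positive HEK293T cells was hybridised to HG-U133 Plus 2.0 arrays, with 1 array per condition analysed here, while the study gives its array experiment in triplicate and whether an array holds a pool is not known. The deposited values are linear MAS5 intensities made by the authors. The submitters' processing notes name MAS5, while its version was not given. Detection calls were not used here. Of 54675 probe sets, 41091 had 1 symbol in the platform annotation, 1801 had several and named no gene, and 11783 were unnamed here. Symbols were updated through gene identifiers of RefSeq (GRCh38.p14), which held 41037, and no RAB symbol changed. The log2 ratio of the deposited signals was taken, with no test. RAB members, gene lists and motifs were chosen with earlier results of these data known, and the ARF and RAS families were added later. All members are named. Values are given for members or other probe sets at least 2-fold different, for the extremes of each role group and for relatives of such members, and, for regulators, for genes at least 2-fold different and the GDI, CHM and RABGGT genes. Values of other members fall outside this rule and were chosen after they were seen, among them RAB9A, RAB10, RAB12, RAB13, RAB24 and RAB35. The same holds for HPS1, HPS4, EEA1, RABEP1 and RBSN. Of the 118 listed regulators, 5 are not analysed here. As alternatives, scaling was done by median centring, by quantiles or by loess (span 0.3), the filter was dropped, raised to the 75th percentile (905) or tied to the olfactory receptor level, low signals were set to a floor, and genes were read from the mean of their probe sets or from _at probe sets alone. A minimum mean signal of 1000 was added after the data were seen. Only the call at 2-fold was run on simulated data, with planted differences and the SD between probe sets as noise. The choice of probe sets, the filter and the background bounds were not part of it. Python 3.11.15, numpy 2.4.6, pandas 2.3.3, statsmodels 0.14.6 and matplotlib 3.10.9 were used.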

Additional observations from a re-analysis of the deposited data

Results flagged for a closer look

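Probe sets that list a RAB symbol together with another gene symbol name no gene and entered no comparison. Of 11 such probe sets, which list RAB4B, RAB6A, RAB34 or RAB43, 3 (27.3%) had a signal above background with IRX1::GFP and a measured ratio of 2-fold or more, beside 8.05% of all 1801 probe sets with several symbols. All 3 were under background in the control, so that only bounds hold, at least 1.62, 1.74 and 3.73-fold higher. Each counted through its IRX1::GFP signal alone, so no direction is read from the share, which was not tested. The first lists RAB6A, and the other 2 both list RAB4B. The widest, a probe set listing RAB4B, read 39 (GFP control) and 534 (IRX1::GFP). None was 2-fold lower, and the 2 brightest, both listing RAB6A, were 1.77-fold and 1.85-fold lower. These are signals in data that the comparisons left out.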

How the results depend on the processing

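No paired analysis was possible because there was a single array for either condition, for which reason leaving an array out could not be tried either. The count of RAB genes at least 2-fold higher, 2 of 45, was 7 of 57 with no filter, beside 17.5% of all genes. It was 4 of 49 with the olfactory receptor level, beside 12.1%, and 1 of 32 with the 75th percentile, beside 6.68%. With only _at probe sets it was 1 of 37, beside 10.2%, and with a mean signal of at least 1000 it was 1 of 30, beside 6.5%. The count lower, 4, was 2 of 32 with the 75th percentile, beside 5.41% of all genes. It was 2 of 30 with a mean signal of at least 1000, beside 5.46%. Each of these filters changes how many RAB genes are counted. For the regulators, the 9 higher were 14 of 113 with no filter, beside 17.5% of all genes, and 2 of 62 with the 75th percentile, beside 6.68%. Counts under the other alternatives were within 1.5 times. The median log2 ratio of the RAB genes ran from -0.31 to 0.05 over the alternatives, so its sign is not fixed. The lowest came with a mean signal of at least 1000, beside -0.03 for all genes, and the highest with no filter, beside 0.12. It lay below the median of all genes under every setting, a difference that was not tested. That of the regulators ran from -0.11 to 0.12. None of the 6 called RAB genes changed sign under any alternative that kept it, and all but RAB30 stayed past 2-fold, RAB33B only just with loess. RAB5A came just past it under median centring, which made 5 lower. RAB30 was at -0.95 as the mean over its probe sets, and the mean turned the sign of RAB6B (-0.04), RAB7A (0.05), RAB11A (-0.21), RAB21 (0.17), RAB22A (0.29) and RAB27A (-0.24). The _at probe sets alone turned RAB7A (0.18) and RAB11A (-0.47). RAB20 and RAB33A, close to 0, turned below 0 under all 3 scalings and RAB5B under median centring. RAB3A was at 2.01 with low signals raised to a floor. With 1 signal at background and 1 array per condition, dim members such as RAB3A, RAB4B and RAB26 have only a bound.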
